A study of Homo sapiens with 6 samples.

Results

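The regions described here are the m1G peaks of the transcripts with the largest numbers of peaks in PANC-1, a cell line long established from a human ductal adenocarcinoma of the pancreas. Members were chosen by number alone: a gene ID entered when it carried 10 or more peaks in the deposited list of the peak caller MeTDiff. This took in 59 of 8386 gene IDs, a share of 0.704%, and 705 of the 18431 peaks. Every comparison of peak numbers, folds and spacing below is therefore a description of chosen genes and carries no test.

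RNA fragments of 100 to 200 nt from polyA+ RNA were precipitated with an antibody against N1-methylguanosine (m1G) and sequenced beside unprecipitated input. The 6 libraries came from 1 experiment and from 1 cell line. Control cells (WT control in the labels), transfected in parallel, gave 1 input and 2 precipitates, and cells depleted of TRMT5 by siRNA for 4 days gave the same numbers. Nothing in the labels tells if the 2 precipitates of a condition derive from different cultures. Both peak lists cover the series as a whole and do not say which libraries each peak was called on, so no value below belongs to a condition, none has an error over replicates, and the depth behind each value is unknown.

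m1G is a guanosine with a methyl group on the edge of the base that pairs with cytosine, so the modified base cannot form a normal pair. It is best known from tRNA, where TRMT5 methylates the guanosine beside the anticodon and so helps the ribosome to keep its reading frame. In a precipitation experiment an enriched stretch of mRNA shows where the antibody retained fragments, at the resolution of the fragments and not of a single base.

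A peak of the MeTDiff list has a strand, 1 or more blocks that may be joined across introns, a false discovery rate (FDR) and a fold enrichment, the authors' own value, read here from the column order as a ratio of precipitate over input. The second list, from MACS2, gives 6264 summits, single positions of highest signal, each with a score on the −log10 scale, taken of p or of q (which of them is not stated). A peak was said to hold a summit when a summit lay inside its blocks. Positions are on GRCh38.

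In 6 of the genes the 5′ edge of the first peak coincided with an annotated transcript start, and 5 of these starts were in the RefSeq promoter table of the same genome (GRCh38.p14). Their first 30 bases are shown because the called peak began at the first annotated base. Whether enrichment itself begins there cannot be told at the resolution of the fragments. In COL18A1 and MYH9 that first peak had the largest fold of the gene, but in MYH9 its FDR, 0.0251, was the highest of the gene's peaks. Capitals mark guanosines, the base that can carry m1G.
COL18A1: GGtccGaGcGGGtGcaccGcGGcGGaGGaG
MELTF: GcacttaaGGaGctcGGGccaGcGcGaGGG
MYH9: GcaGatcaccGcGGttcctGGGcaGGGcac
NOTCH3: cttcGGcGaaGttGGcGGcGcGGaGGctGG
INTS1: GaGatcGGtttccGattccGGGGtGGccGG
These stretches lie at chr21:45405165-45405194 on the plus strand (COL18A1) and, on the minus strand, at chr3:197029788-197029817 (MELTF), chr22:36387938-36387967 (MYH9), chr19:15200966-15200995 (NOTCH3) and chr7:1504360-1504389 (INTS1). Of the 30 bases, 16 were guanosine in COL18A1, 15 in NOTCH3, 13 in MELTF, 13 in INTS1 and 11 in MYH9. The first peaks that began there had folds of 21.7, 7.38, 12, 2.5 and 8.83 in that order, so INTS1 had as many guanosines as MELTF and the lowest fold of the 5.

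A further set shows 30 bases around a MACS2 summit that lay inside a member peak, with the summit base in capitals. They are shown because these are places in multi-peak genes where both callers put enrichment.
PDXK: gcgctgatcgggtcCgccgcgcgccagagc
APC2: gctgaagatggcgaGctccgtggcgcccta
AKT2: gccacccttgctggCcttaccctttgctga
EHBP1L1: gccaaggacgacccCagcaggcaggtgaga
The PDXK stretch is chr21:43719146-43719175 on the plus strand, in the first peak of the gene (18-fold), and its summit had a score of 52.24. The APC2 summit, with a score of 20.81, also lay in a first peak (13.9-fold). Its stretch is chr19:1452995-1453024 on the plus strand. In AKT2 the stretch is chr19:40265453-40265482 on the minus strand, and its summit had a score of 42.62 and lay in peak 5 from the 5′ end, of 10.2-fold. In EHBP1L1 the stretch is chr11:65581103-65581132 on the plus strand, and its summit had a score of 5.316 and lay in a peak of 8.55-fold. That peak also held a summit of higher score, 11.95. Of the 30 bases printed, 30 lay in the blocks of the peak in PDXK, 24 in EHBP1L1 and 22 each in APC2 and AKT2, the remainder just outside. Guanosines made up 12, 11, 6 and 11 of the 30 bases in PDXK, APC2, AKT2 and EHBP1L1.

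RefSeq held windows from 250 bases before to 50 after a start for 44 of the 57 genes named by a single gene at all of their peaks. GC content was averaged over the windows of each gene, 66 windows in these 44 genes. The median over genes was 70.5% (quartiles 67.0 and 74.83), against 70.33% for genes with 5 to 9 peaks and 66.5% for all named genes with a peak. Within the windows of any gene, 2903 bases were covered by member peaks, and 41.03% of them were guanosine. Windows on chromosome 8 were left out of all these values. Over all peaks the share was 39.51% of 140657 bases.

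Of the 59 IDs, 56 were placed on a protein-coding gene and 2 on a long noncoding RNA gene (SNHG14 and NEAT1), and 1, ENSG00000177946 at chr16:89970133-89972783, had no name in the gene table. The median gene had 11 peaks. The numbers fell from 20 genes with 10 peaks, 12 with 11 and 12 with 12 to 1 gene with 16 (AKT2), 3 with 18 (PKD1, TNRC18 and EPPK1) and 1 with 19 (HSPG2).

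**Figure D1:**
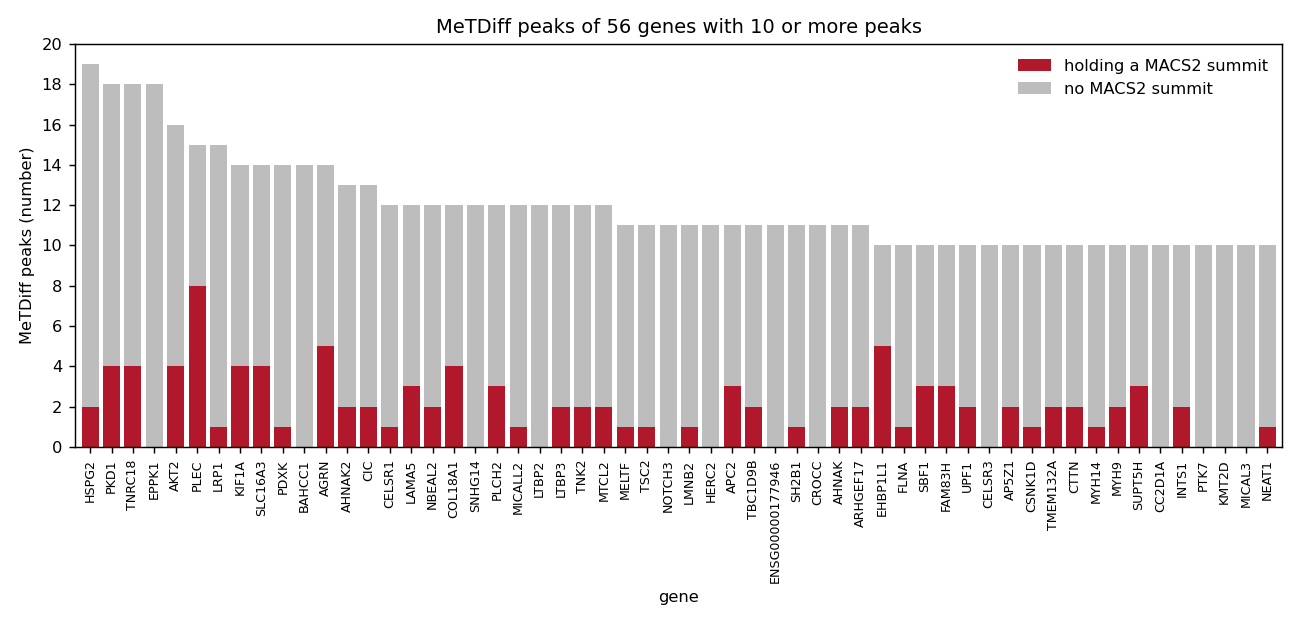
Number of MeTDiff peaks (vertical axis) of 56 of the 59 genes, sorted from most to fewest, with peaks that hold a MACS2 summit in red and the others in grey. HSPG2 stands first with 19 peaks, of which 2 hold a summit, and PLEC has the tallest red bar, 8 of 15.

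The threshold cut through a gradual slope. The 20 genes with exactly 10 peaks had a median fold of 4.175 over 200 peaks, and 15.5% of these held a summit, while the 47 genes with 9 peaks had a median fold of 3.7 over 423 peaks, with 15.1% holding. Just inside were AP5Z1, which encodes a subunit of the AP-5 sorting complex, CC2D1A and CELSR3. Just outside were ABCA2 (median fold 3.35, range 1.42 to 13.9), ABCA7 (4.8, range 2.25 to 9.88) and BCL9L (3.0, range 1.44 to 11.8).

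Member genes were long. The RefSeq span of the named members had a median of 41958 bp, against 28214 bp for genes with 5 to 9 peaks and 26435 bp for all named genes with a peak. Density nevertheless ran from 0.2014 peaks per 10 kb of span in SNHG14 to 10.16 in FAM83H, with a median of 2.653. Chromosome 19 carried 11 of the 59 genes (18.64%), against 9.015% of all gene IDs with a peak, and chromosome 11 carried 7 (11.86%, against 6.38%). Several members were neighbours: FAM83H, EPPK1 and PLEC lay in that order within chr8:143723933-143976745, and NEAT1, LTBP3 and EHBP1L1 within chr11:65422798-65592650. TSC2 and PKD1 run towards each other on chromosome 16 and their annotated spans overlap by 784 bp, and SLC16A3 and CSNK1D do so on chromosome 17 by 1068 bp. In each of these pairs 1 peak of either gene overlapped a peak of its partner on the opposite strand, and whether reads were counted by strand is not given in the sources used here, so enrichment at those shared ends cannot be told apart between partners.

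Genes of the extracellular matrix and basement membrane supplied the member with most peaks. Of 18 listed genes of this kind, 11 had a peak, 6 had 5 or more and 5 had 10 or more, where 9.87% of all gene IDs with a peak had 5 or more and 0.704% had 10 or more. This and the other gene lists were drawn up with these peak numbers known, so nothing is read from their counts. HSPG2 (ENSG00000142798, chr1:21822244-21937310) encodes perlecan, the large heparan sulfate proteoglycan of basement membranes. Its 19 peaks had folds, from the 5′ to the 3′ end, of 13.4, 1.43, 3.95, 4.93, 1.73, 10.3, 4.67, 3.6, 3.14, 5.5, 2.78, 5.08, 2.35, 4.5, 2.8, 3.38, 1.56, 7.8 and 9.17. The highest values thus stood at both ends and at peak 6, with a row of low and middling values between. The first of these peaks did not lie at the start of the transcript but 41351 bp from the nearest annotated start, at chr1:21890098-21895959.

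LAMA5, the alpha-5 chain of laminin, had the highest median fold of all members, 11.6 over 12 peaks, all of them from a separate stretch of the list described below. Its series was 2.88, 15.7, 5.35, 20, 24.8, 19.0, 17.6, 11.5, 8.3, 3.99, 11.7 and 8.29, low at the first peak and highest at peaks 4 to 7. The strongest, at chr20:62322274-62322732, had an FDR of 2.69e-07. COL18A1, the collagen from which endostatin is cleaved, had the opposite shape, with 21.7 at its start followed by 5.69, 3.54, 5.32, 3.09, 3.57, 2.33, 4.57, 2.71, 4.0, 2.47 and 1.3. Its peak 6 joined 12 blocks, the most of any member, and 5 of its 12 peaks overlapped a peak on the opposite strand. AGRN, the proteoglycan agrin, had 14 peaks between 1.96-fold and 10.5-fold and 5 of them held a summit. LTBP3 and LTBP2, relatives of fibrillin in the matrix, had 12 peaks each, with medians of 3.21 and 5.71.

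Of 20 listed cytoskeletal linkers and scaffolds, 17 had a peak, 14 had 5 or more and 6 had 10 or more, beside 9.87% and 0.704% of all gene IDs with a peak. PLEC (ENSG00000178209, chr8:143915153-143976745), which encodes plectin, a linker of intermediate filaments to junctions, had 15 peaks of 5.68, 6.96, 4.31, 5.69, 4.25, 5.08, 10.0, 6.96, 14.9, 4.01, 14.4, 5.68, 12.5, 3.56 and 6.76-fold. No PLEC peak was under 3.56-fold, and the 4 peaks of 10.0-fold and above all lay from peak 7 onward. EPPK1 (ENSG00000261150, chr8:143857324-143879194), a plakin of epithelial keratin networks, had 18 peaks between 1.75-fold and 10.5-fold, all of a single block, and no summit lay anywhere in its span. The number for EPPK1 needs a caution given below, since 8 of its 18 peaks came from a separate stretch of the list.

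FLNA, the actin crosslinker filamin A, had the largest first peak relative to the rest of any member. That peak, at chrX:154370995-154371194, was 26.4-fold, and the others were 2.78, 3.07, 3.87, 1.79, 4.64, 3.54, 14, 3.06 and 4.95-fold. MYH9, the heavy chain of nonmuscle myosin IIA, had 8.83-fold at its start and 7.45-fold at its last peak, with 1.66 to 6.11 between. AHNAK and AHNAK2, giant scaffold proteins, had 11 and 13 peaks and low medians of 2.79 and 3.71. In AHNAK the folds ran from 1.53 to 6.92, the highest at peak 9, while AHNAK2 ended with its highest value, 16.5-fold. All 13 AHNAK2 peaks came from the separate stretch of the list.

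Large surface receptors had 24 of 26 listed genes with a peak, 19 with 5 or more and 6 with 10 or more, beside the same 9.87% and 0.704% of all gene IDs with a peak. PKD1 (ENSG00000008710, chr16:2088708-2135898), which encodes polycystin-1, had 18 peaks, led by one of 23.9-fold at chr16:2091572-2092104 that held a summit of score 25.19. Its other values ran from 1.87 to 12.3, with 12.3 at the first peak. LRP1 (ENSG00000123384), an endocytic receptor for many ligands, had 15 peaks but a median of only 2.8-fold and a maximum of 9.5-fold.

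NOTCH3, a receptor that is cleaved to release a transcriptional regulator, had the lowest median fold of the members. Its 11 peaks were 7.38, 1.79, 2.29, 2.2, 1.93, 2.56, 3.88, 4.75, 9.75, 2.23 and 17.0-fold. Only the first peak and 2 of the last 3 stood out, and none of the 11 held a summit. CELSR1, a cadherin of planar cell polarity, had a 36.0-fold peak as its second, at chr22:46536522-46536622, with an FDR of 0.0295, and its others lay between 1.44 and 10.2. Its relative CELSR3 had 10 peaks of 1.38-fold to 11.8-fold and none held a summit.

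Among chromatin and transcription regulators, 26 of 28 listed genes had a peak, 14 had 5 or more and 5 had 10 or more, again beside 9.87% and 0.704%. TNRC18 (ENSG00000182095, chr7:5306811-5423834), a large protein with a BAH domain, had 18 peaks of 12.4, 13.6, 4.0, 7.18, 5.29, 3.25, 7.36, 1.72, 1.3, 1.93, 4.83, 9.52, 3.67, 4.83, 2.74, 1.87, 1.82 and 5.44-fold. The strongest enrichment was thus in its first 2 peaks, with a low stretch at peaks 8 to 10. BAHCC1 (ENSG00000266074), which has the same kind of domain, had 14 peaks of 1.67-fold to 17.1-fold and none held a summit. CIC, a repressor downstream of receptor kinases, had 13 peaks led by 12.5-fold at peak 6, and KMT2D, a histone H3 methyltransferase, had 10 between 2.1-fold and 7.21-fold.

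Signalling, transport and RNA genes are described from lists of the same kind, so nothing is read from their counts either. Of 26 listed kinase and growth factor genes, 21 had a peak, 7 had 5 or more and 2 had 10 or more, beside 9.87% and 0.704% of all gene IDs with a peak. Those with 10 or more were AKT2 (ENSG00000105221, chr19:40230317-40285345), a kinase of the insulin pathway, and TSC2, which restrains mTOR signalling. The 16 AKT2 peaks were 4.07, 3.89, 4.67, 10.3, 10.2, 8.61, 4.5, 4.55, 3.64, 3.66, 1.61, 36.0, 6.12, 5.54, 5.0 and 4.06-fold. Fold in AKT2 was high at peaks 4 to 6, lowest at peak 11 and by far highest at the next, chr19:40234752-40234901. TSC2 had 11 peaks with a median of 7.25, 20-fold at peak 3 and 23.6-fold at peak 9.

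Of 20 listed solute transporters, 18 had a peak, 5 had 5 or more and 1 had 10 or more, beside 9.87% and 0.704% of all gene IDs with a peak. That 1 was SLC16A3 (ENSG00000141526, chr17:82217934-82240086), the lactate exporter MCT4. Its 14 peaks were 7.7, 5.0, 18, 7.5, 16, 2.75, 6.8, 3.0, 9.0, 1.74, 2.64, 5.8, 3.64 and 12.3-fold. Of 18 listed translation and helicase genes, 16 had a peak, 6 had 5 or more and 1 had 10 or more, beside the same shares. That 1 was UPF1, the helicase of nonsense-mediated decay, with 10 peaks. TRMT5, the targeted gene, and NES, which encodes nestin and is named in the title of the study, each had a peak but fewer than 10.

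Other members had the most extreme values. MELTF, the iron-binding melanotransferrin, had the highest fold of any member peak, 64.5, at chr3:197002712-197003261. That peak covered 550 bp, had an FDR of 0.00219, held a summit of score 60.97 and overlapped a peak on the opposite strand. The other MELTF peaks were 12, 14.2, 12.8, 5.38, 2.57, 1.93 and 1.3-fold before it and 4.25, 4.25 and 2.6-fold after it, so the ratio of its largest to its smallest fold, 49.62, was also the highest. EHBP1L1, a protein of vesicle trafficking, had the next highest peak, 50.4-fold at chr11:65584991-65585590, which held a summit of score 49.02. KIF1A (ENSG00000130294), a kinesin of vesicle transport, had 20.4-fold and 27.3-fold at peaks 5 and 9 and 1.78 to 7.08 at the other 12. PDXK (ENSG00000160209), the kinase that makes the active form of vitamin B6, began with 18-fold and ran from 1.62 to 8.5 afterwards.

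High median folds beside LAMA5 were those of NBEAL2 (8.93), AP5Z1 (7.51), SNHG14 (7.335) and TSC2. SNHG14, a long transcript that hosts small nucleolar RNAs, had its 12 peaks far inside a span of chr15:24823608-25419462, the first 250373 bp from the nearest annotated start. Low medians beside NOTCH3 were those of the unnamed ID (2.6), AHNAK, LRP1 and SH2B1 (2.83), an adaptor of receptor signalling. NEAT1, the RNA scaffold of nuclear paraspeckles, varied least, with a ratio of largest to smallest fold of 2.76, against a median of 8.309 over the members. CROCC was close, at 2.833. Of the 10 NEAT1 peaks, 6 came from the separate stretch of the list and some cover the same ground as others, as described below.

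**Figure D2:**
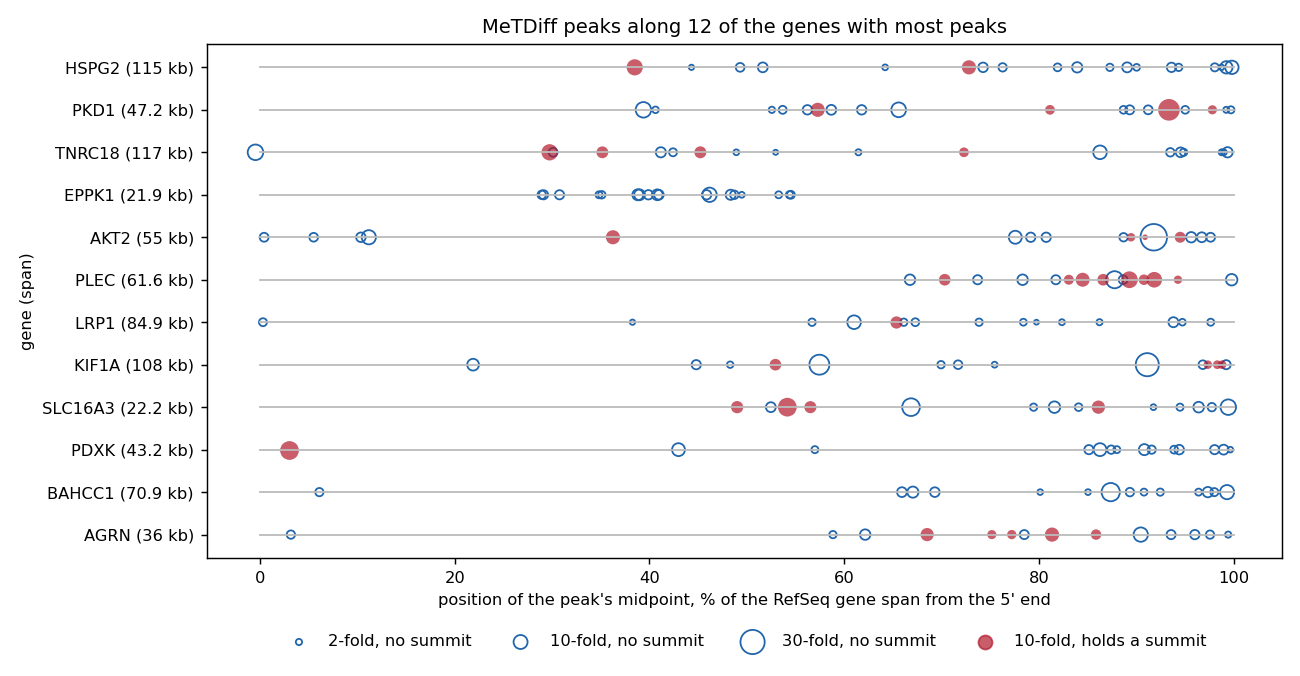
Place of each MeTDiff peak in 12 of the genes with most peaks, as percent of the RefSeq gene span from the 5′ end (introns included), with circle area proportional to fold. Filled red circles hold a MACS2 summit and open blue circles do not; the 18 EPPK1 circles crowd the middle of the span, and the first TNRC18 peak lies just upstream of it.

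As a set, member peaks had folds close to those of other peaks. Their median fold was 4.31 (quartiles 2.78 and 7.08), against 4.0 for genes with 5 to 9 peaks, 4.17 for 2 to 4, 4.5 for 1 and 4.24 for all. A fold of 10 or more was reached by 100 member peaks (14.18%), near the 12.7% of all peaks, and a fold of 20 or more by 22 peaks in 17 genes (3.121%, against 2.463%). At the other end, 81 member peaks (11.49%) were under 2-fold, against 9.251% of all. The median FDR was 0.00112, against 0.00129 for all peaks.

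Among member peaks, 283 of 705 (40.14%, 95% Wilson interval 36.59 to 43.8) had 2 or more blocks, joined across introns. The share was 36.66% (35.29 to 38.05) in genes with 5 to 9 peaks, 32.53% at 2 to 4, 28.91% at 1 and 33.1% over all peaks. It thus rose with the number of peaks per gene, and the intervals of members and of genes with 5 to 9 peaks overlapped. Member peaks overlapped peaks of other gene IDs less, at 3.546% (25 peaks in 13 genes, 19 of them on the opposite strand) against 12.1% of all. This share also changed step by step, from 18.15% at 1 peak through 11.74% at 2 to 4 and 8.764% at 5 to 9. Intervals here and below cover counting error only.

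Neighbouring peaks lay close together. Over 646 neighbouring pairs the median distance between midpoints was 1464 bp (quartiles 604.4 and 4053), introns included, against 1694 bp in genes with 5 to 9 peaks and 2922 bp in genes with 2 to 4. Of these distances, 256 (39.63%) were under 1 kb and 62 (9.598%) over 10 kb. Measured between facing edges the median fell to 787.5 bp, and among peaks of a single block to 872.5 bp.

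The genes differed widely in this respect. HERC2, a giant ubiquitin ligase, had the widest median spacing, 17260 bp over 11 peaks, and every one of its peaks had a p-value of its own. MYH14, a nonmuscle myosin heavy chain, had a median of 6203 bp over its 10 peaks. The longest single distance, 99183 bp, was in CELSR1, whose median was only 846.5 bp, and in MYH9 a distance of 81363.5 bp stood beside a median of 2694.5 bp. The narrowest medians were 152 bp in the unnamed ID, 199.5 bp in EPPK1 and 403 bp in SH2B1.

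**Figure D3:**
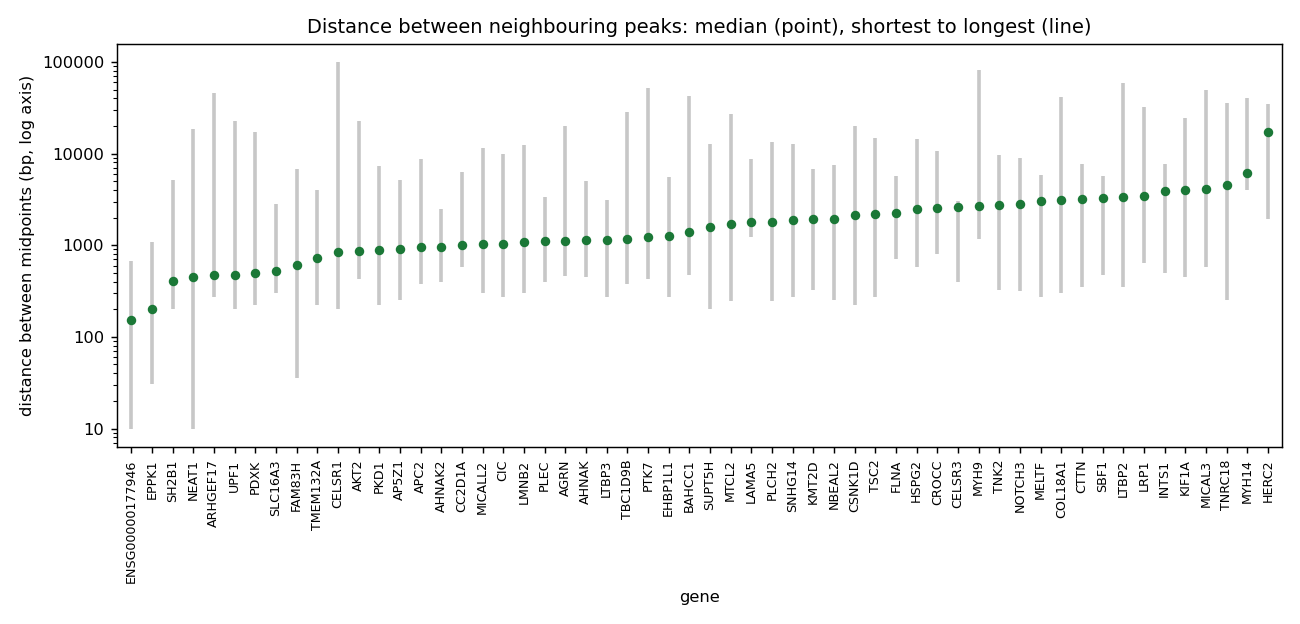
Distance between the midpoints of neighbouring peaks in bp (log axis) for 56 of the 59 genes, sorted by the median. Green points are medians and grey lines run from the shortest to the longest distance, with distances under 10 bp drawn at 10. The medians climb from 152 bp to 17260 bp, and most lines span more than 1 order of magnitude.

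Some of the narrow spacing goes with the layout of the list. After its first pass through the chromosomes the MeTDiff list starts a second run with 457 further peaks on 203 gene IDs, and 53 IDs have peaks in both runs. Among the members, 55 peaks came from the second run: all of AHNAK2 (13) and LAMA5 (12), 9 of the 10 in FAM83H, 8 of the 18 in EPPK1, 7 of the 11 in the unnamed ID and 6 of the 10 in NEAT1. In EPPK1, NEAT1, FAM83H and the unnamed ID, peaks of both runs cover the same ground. For example, the NEAT1 peak at chr11:65425347-65425497 (5.3-fold) lies wholly inside the one at chr11:65425317-65425665 (5.26-fold). In 3 of these 4 (EPPK1 aside) neither run alone reaches 10 peaks, and 54 genes reach it in the first run alone.

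Peaks of a gene also often carried one p-value between them. Of the 646 neighbouring pairs, 232 (35.91%) had the same p, against 28.64% of 10045 pairs over all genes. Pairs with the same p were closer, at a median of 841 bp against 1973 bp, while the ratio of the larger to the smaller fold was alike at 1.697 and 1.744. Only AHNAK2, LAMA5 and HERC2 had a different p at every peak. LTBP2 had 3 p-values over its 12 peaks, 13 genes had 5 or fewer, and 14 genes had 10 or more, so peaks of one gene are not separate tests of enrichment.

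Along the genome span, peaks were set towards the 3′ end. With each span cut into 5 equal parts, the 680 member peaks that could be placed fell 12.21%, 9.118%, 17.21%, 22.06% and 39.41% from the 5′ to the 3′ end. Over all peaks the shares were 26.47%, 9.97%, 11.22%, 16.41% and 35.93%. In genes with 5 to 9 peaks the 5′ part held 14.94% and the 3′ part 42.68%, close to the shares in the members. Spans include introns, and position on the spliced transcript was not analysed here. Median fold in the 5 parts was 4.08, 4.33, 4.44, 4.185 and 4.335, almost level, while over all peaks it fell from 5.17 in the 5′ part to 3.8 in the 3′ part.

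By order of peaks, the first stood above the rest in most genes. First peaks had a median of 6.93-fold (quartiles 3.625 and 11.65), the second of each gene 3.9, the interior peaks 4.25 and the last peaks 4.64 (quartiles 2.59 and 7.65). Within a gene the first peak was 1.502 times the median of the others (quartiles 0.9096 and 2.706), and it was above 1 in 40 of 59 genes (67.8%). The share was 65.41% in genes with 5 to 9 peaks and 59.3% over all gene IDs with 2 or more. The last peak was at 1.058 times the others (quartiles 0.5592 and 1.535), above 1 in 32 genes.

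Single genes departed from this in both directions. The first peak was at least 2 times the others in 22 genes, led by FLNA at 7.458 and COL18A1 at 6.13. It was at 0.5 times or less in 4, among them LAMA5 at 0.2462, EHBP1L1 at 0.3924 and SUPT5H at 0.4523, the gene of a transcription elongation factor. The peak of largest fold was the first in 12 genes (20.34%) and the last in 7, where equal shares for every position would give 5.088 genes. In genes with 5 to 9 peaks it was the first in 31.08%, where equal shares would give 17.05%. At the 3′ end the last peak was at least 2 times the others in 12 genes and at 0.5 times or less in another 12, with NOTCH3 at 7.01, AHNAK2 at 4.558 and CSNK1D, a casein kinase, at 3.781 as the highest.

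**Figure D4:**
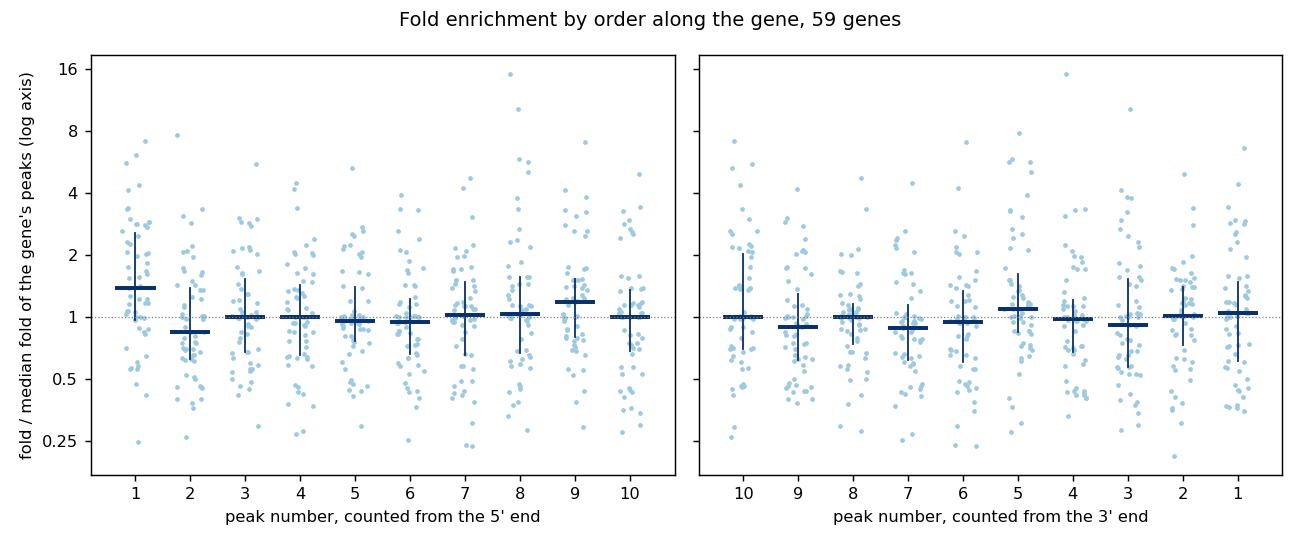
Fold of each member peak divided by the median fold of its gene (log axis), by its number from the 5′ end (left) and from the 3′ end (right), for peaks 1 to 10. Points are peaks, bars are medians and thin lines quartiles; the first peak has a median of 1.379, the second of 0.8442, and the last of 1.043.

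The rise at the first peak was larger where that peak lay at a start. Its 5′ edge was within 500 bp of an annotated start in 35 of the 58 genes with one, and there the ratio of first to other peaks had a median of 1.765, above 1 in 25 genes. In the other 23 genes the median was 1.094, above 1 in 14. First peaks had 2 or more blocks in 33 of 59 genes (55.93%), against 41.23% of interior and 13.56% of last peaks, although all covered about the same length, a median of 151 bp. Without peaks of 2 or more blocks the median ratio was 1.327. In TNRC18, TNK2 and FAM83H the first peak reached upstream of the annotated span, by 1480, 3294 and 3908 bp, so its start is not that of the annotated transcript. The last peak ended within 500 bp of the 3′ end of the gene in 28 genes.

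MACS2 summits lay in 109 of the 705 member peaks, which is 15.46% (interval 12.98 to 18.32), against 12.4% of all peaks. Over classes of peak number the share was 11.35% at 1 peak, 11.85% at 2 to 4 and 13.75% at 5 to 9. The interval of the class of 5 to 9 (12.79 to 14.76) overlapped that of the members. By single peak numbers there was no steady rise near the threshold. The share was 15.27% at 7 peaks, 14.29% at 8, 15.13% at 9, 15.5% at 10, 9.848% at 11 and 15.28% at 12. Covered length moved with this share, since 300 bp was the median for member peaks with a summit and 150 bp for those without. Among peaks covering at most 110 bp the share was 4.074% in members and 2.119% over all, and at 110 to 200 bp it was 9.474% and 7.859%. At 200 to 350 bp it was 23.26% in members and 31.01% over all, and above 350 bp it was 54.79% and 64.38%, so the order reversed in the longer classes.

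By order of peaks, median fold was highest at first peaks, while the share with a summit was similar at first, interior and last peaks. It was 15.25% for first peaks (9 of 59, interval 8.238 to 26.52), 15.33% for interior and 16.95% for last peaks. The interval for first peaks is wide, so a higher or lower share there cannot be told from an equal one. In genes with 5 to 9 peaks, 20.29% of first peaks held a summit and 11.96% of last peaks. None of these differences was tested.

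Of the 59 genes, 13 had no peak with a summit, 13 had 1, 18 had 2 and 15 had 3 or more. PLEC led with 8 of 15 (53.3%) and EHBP1L1 followed with 5 of 10, and AGRN and COL18A1 came next. SBF1, a myotubularin-related protein, FAM83H and SUPT5H each had 3 of 10. In FAM83H these hold only 2 summits, since peaks 4 and 5 overlap, come from different runs of the list and hold the same summit. EPPK1, BAHCC1, SNHG14 and LTBP2 had the most peaks among those with none, followed by NOTCH3, HERC2, CROCC and the unnamed ID with 11 each. EPPK1 and HERC2 had no summit anywhere in their span. The unnamed ID has no annotated span, and no summit lay in the stretch from its first to its last peak.

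Peaks with a summit were stronger: their median fold was 7.0 (quartiles 4.5 and 10.7), against 4.0 (2.62 and 6.12) for the others, as over all peaks (7.79 and 3.88). The peak of largest fold held a summit in 20 of 59 genes. Of the 22 member peaks at 20-fold or more, 7 held one, 1 each in MELTF, EHBP1L1, NBEAL2, PKD1, PLCH2, MICALL2 and TSC2, while those in AKT2, CELSR1, KIF1A and FLNA were among the ones that did not. The matching shares over all genes and over all peaks of that fold were not computed, so nothing particular to the members is read from these counts.

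**Figure D5:**
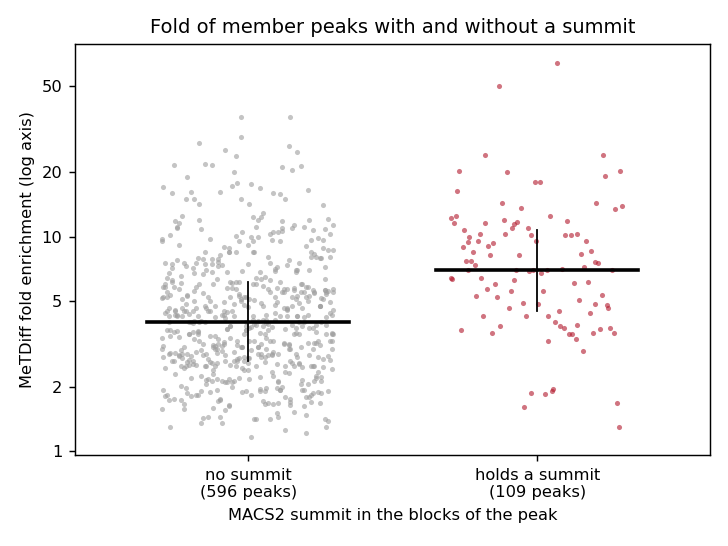
MeTDiff fold (log axis) of the 596 member peaks without a MACS2 summit in their blocks and of the 109 with one. Points are peaks, thick bars medians (4.0 and 7.0) and thin lines quartiles; the groups overlap over most of their range.

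Seen from the summits, 307 lay in the spans of member genes and 115 of them (37.46%, interval 32.23 to 43.0) lay inside a member peak. A further 88 were within 50 bp of one, 82 farther than that but within 1 kb, and 22 farther still. Summits were counted over the whole span without regard to strand, so some may belong to other genes there. A summit in overlapping member spans was counted for each gene. The same shares over all genes with a peak were not computed, so nothing particular to the members is read from them. The median score was 18.25 for summits inside a peak, 21.52 for those within 50 bp and 15.93 for those farther away. Widening the blocks by 50 bp on each side raised the share of member peaks with a summit to 27.52%, against 21.31% of all peaks.

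A few members have close copies elsewhere in the genome. The gene table lists numbered pseudogenes named after PKD1 (6), TNRC18 (3), CIC (28), HERC2 (11), CROCC (5) and SBF1 (2), and how reads that fit several places were assigned is not given in the sources used here. Peaks in these genes are uncertain to that extent. Of markers for the labelled cells, 6 of 8 epithelial and carcinoma genes had a peak (KRT8, KRT18, KRT19, EPCAM, VIM and MUC1), while KRT7 and CDH1 had none. A peak was also present in 1 of 5 acinar (CEL), 0 of 4 endocrine, 0 of 4 leukocyte, 0 of 3 endothelial and 1 of 5 stellate genes (COL1A1). A peak shows that a transcript was enriched, not how much of it was present. The share of all genes with a peak was not computed, so nothing on cell identity is read from these counts.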

How the data were processed

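PolyA+ RNA of PANC-1 cells was fragmented, precipitated with an anti-m1G antibody and sequenced, per the labels' protocols. Tools named in the submitters' processing notes are the aligner STAR 2.7.1, the peak caller MACS2 2.2.5, edgeR, DESeq2, ChIPseeker, featureCounts, bedtools, Picard and SAMtools, with the build GRCh38, while what each was used for is not given in the sources used here. The deposited MACS2 list holds 1 score per summit on the −log10 scale, of p or of q. The deposited MeTDiff list gives per peak a p-value, the log10 of its FDR and a fold, the ratio of precipitate over input as read from the column order, and its highest FDR was 0.0501. Neither list separates samples, so depth is unknown and p-values over samples could not be computed.

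Members were the gene IDs with 10 or more peaks in the MeTDiff list. Peaks were ordered by midpoint along their strand. IDs were named by position from the RefSeq table (GRCh38.p14), small RNA genes aside. A name was given where exactly 1 gene had a span that overlapped all peaks of the ID. The strand had to match only where the promoter table gave a strand for the gene. These steps named 57 of 59 IDs. TNK2 was named from 11 of its 12 peaks. Start sequences and starts came from the RefSeq promoter table and the 5′ end of the span. Python 3.11.15, pandas 2.3.3, scipy 1.17.1 and matplotlib 3.10.9 were used, and the scripts were tested on simulated data. Shares carry 95% Wilson intervals.

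Genes named in the text were the 12 with most peaks, those at the extremes of median fold, share of peaks with a summit, spacing and first-to-other ratio, the members of 9 gene lists, and 3 genes on each side of the threshold. The other genes named were singled out after their values were seen: MELTF, APC2, INTS1, PLCH2, MICALL2, CSNK1D, NEAT1, FAM83H, TNK2 and CROCC. The members and lists were chosen with earlier results of these data known. Alternatives changed the peak number, what counts as a peak, the way a summit is held, the order and the spacing measure. A few genes that the naming rule covers are not reported here and are left out of the plots that name genes, while counts and medians over the members include them.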

Additional observations from a re-analysis of the deposited data

How the results depend on the processing

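Of 33 alternative values over 6 results, 24 stayed within 1.5 times the reported count or median, or within the interval of the reported share, and 9 did not. The number of genes, 59, became 183 with 8 or more peaks, 27 with 12 or more, and 14 with peaks of one gene that have the same p counted once, an alternative chosen after seeing the data. It was 56 with overlapping peaks of a gene counted once, 44 at an FDR of 0.01 or less, and 54 without peaks that overlap another gene ID. The share of member peaks with a summit, 15.46%, became 24.82% over whole spans, 27.52% with blocks widened by 50 bp, and 9.078% with only summits at or above the median score. Over all peaks the same changes gave 18.06%, 21.31% and 6.934% in that order. The median spacing of 1464 bp became 787.5 bp between facing edges and 872.5 bp without peaks of 2 or more blocks. The median fold of 4.31 became 7.0 among peaks that hold a summit. The percent of genes whose largest peak was the first, 20.34, ranged from 17.39 to 29.31 over its alternatives, and the ratio of first to other peaks, 1.502, from 1.327 to 1.549.

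Leaving out the second run of chromosomes in the list, also chosen after seeing the data, gave 54 genes, 15.6% of peaks with a summit, a median spacing of 1624 bp and a median fold of 4.3. The causes of these shifts beyond the construction of each alternative were not tested. No paired analysis was possible because the peak lists carry no columns for samples, and for the same reason no replicate could be left out. Depth is unknown, so no limit from read numbers can be given.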
